A study of Mus musculus with 4 samples.

Results

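Chemokine receptors, chemokine ligands and receptors for sphingosine 1-phosphate (S1P) were examined in lung T helper 2 (Th2) cells. The members are all genes of the deposited table whose symbol starts with Ccr, Cxcr, Ccl, Cxcl or S1pr followed by a digit, with Ccl24 left out. This gave 33 of 11883 genes, of which 16 encode receptors (9 CC chemokine receptors, 4 CXC chemokine receptors and 3 S1P receptors) and 17 encode ligands (12 CC and 5 CXC). They were chosen by symbol, with earlier results of these data known.

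The RNA came from lungs of C57BL/6 mice given papain, an allergenic plant protease, on a chronic schedule; live cells with surface CD4 and T1/ST2, the interleukin-33 receptor, were sorted. Of the 4 samples, 2 had the genotype Gata3(fl/fl) (control below) and 2 had Klrg1Cre Gata3(fl/fl) (Klrg1Cre below), so all 4 carried the floxed allele of the transcription factor gene Gata3 and all received papain. Cre in the second genotype is named for Klrg1, a gene of differentiated lymphocytes and of group 2 innate lymphoid cells (ILC2), and acts in any cell that has expressed it. The file headers name the groups WT and ILC2 deficient; these were taken as control and Klrg1Cre, a link that the labels do not state. No group carried Klrg1Cre without floxed Gata3, so loss of Gata3 in Th2 cells, lack of ILC2 and the Cre allele itself cannot be told apart. Age, sex and whether the samples were separate mice or pools are not given in the sources used here, so a p-value measures the spread between samples that may be technical.

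The deposited values are group means in CPM, read counts scaled to library size, with a ratio, a p-value and an adjusted p-value from the authors' own comparison. For 22 of the 33 members each mean had a single solution in whole reads for its pair of libraries, which gives a value per library. The library totals were 26019065 and 14564426 reads in Klrg1Cre and 33379572 and 31961572 in control. Which library is sample 1 or 2 is unknown, so they are called the larger and the smaller library. The ribosomal RNA precursor Rn45s took up 67.1% of reads in Klrg1Cre and 51.4% in control, and scaling to the other listed genes instead shifted every log2 ratio by -0.03. In sorted bulk cells, fewer cells of a type and less RNA per cell cannot be told apart. The table lists 9 of 12 T cell markers, with summed means of 1199 (Klrg1Cre) and 1226 (control) CPM. Cd4 had deposited means of 167.6 against 150.1 CPM and Il1rl1, encoding T1/ST2, 59.1 against 68.0 CPM. The targeted gene Gata3 had deposited means of 293.9 CPM in the group labelled Klrg1Cre against 221.4 CPM in control. Its mean was thus 1.33-fold higher, not lower, under the label of its deletion (p = 0.0115, adjusted p = 0.551 in the authors' deposited table). A count over the whole gene does not check a deleted stretch that is not given. Klrg1 had 1.38 and 7.0 CPM in the larger and smaller library labelled Klrg1Cre, and 42.0 and 54.9 CPM in control.

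Chemokines are small secreted proteins that bind receptors coupled to inhibitory G proteins and direct the movement of leukocytes along gradients. T helper subsets carry different receptors: CCR4, CCR8 and CCR3 mark type 2 cells, CXCR3 type 1 cells, CCR6 type 17 cells, and CCR7 and CXCR5 cells that home to lymphoid tissue. S1P is abundant in blood and lymph and scarce in tissue, and S1P receptor 1 guides lymphocytes out of tissues; CD69 pulls that receptor from the surface, and the factor KLF2 drives its transcription. GATA3, the product of the floxed gene, binds DNA at short GATA motifs.

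Promoters of 4 receptor genes are shown because Gata3 is the floxed gene: Ccr3, Ccr9 and Cxcr3 are those of the 4 receptors with unadjusted p below 0.05 in the authors' comparison for which a window was matched (the other is Cxcr5), and Ccr8 was the type 2 receptor with the highest level. Each line holds the 250 bases before the start site, 5′ to 3′ on the gene's strand, from RefSeq on build GRCm38.p6, which is not the mm9 build named for the alignments. Ccr3 lies at chr9:124021721-124021970 on the plus strand, Ccr9 at chr9:123766961-123767210 on the plus strand, Ccr8 at chr9:120091883-120092132 on the plus strand and Cxcr3 at chrX:101734148-101734397 on the minus strand. Capitals mark a match, on either strand, to the GATA motif in any of its forms: AGATAA, the same with G as its last letter, and both of these with T as the first letter.
Ccr3: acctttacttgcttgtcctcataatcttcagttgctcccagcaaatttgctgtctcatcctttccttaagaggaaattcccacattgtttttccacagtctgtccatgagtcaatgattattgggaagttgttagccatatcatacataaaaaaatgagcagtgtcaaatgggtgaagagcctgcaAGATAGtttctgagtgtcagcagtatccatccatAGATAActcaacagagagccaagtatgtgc
Ccr9: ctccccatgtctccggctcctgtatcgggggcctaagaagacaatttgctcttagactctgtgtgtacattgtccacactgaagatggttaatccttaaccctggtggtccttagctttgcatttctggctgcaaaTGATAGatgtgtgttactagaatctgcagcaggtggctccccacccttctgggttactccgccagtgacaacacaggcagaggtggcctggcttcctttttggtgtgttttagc
Ccr8: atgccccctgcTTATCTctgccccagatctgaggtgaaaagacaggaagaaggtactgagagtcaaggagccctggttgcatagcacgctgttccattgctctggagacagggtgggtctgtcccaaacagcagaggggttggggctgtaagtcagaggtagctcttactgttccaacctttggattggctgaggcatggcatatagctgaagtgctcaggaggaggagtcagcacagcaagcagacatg
Cxcr3: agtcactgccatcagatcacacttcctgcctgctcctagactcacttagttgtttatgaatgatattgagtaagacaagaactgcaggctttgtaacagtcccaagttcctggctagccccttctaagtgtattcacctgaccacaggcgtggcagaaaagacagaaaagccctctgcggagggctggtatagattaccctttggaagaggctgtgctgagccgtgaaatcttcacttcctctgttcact
The Ccr3 promoter held 2 matches, which begin 64 and 30 bases before the start site. Ccr9 held 1 match at 114 bases, Ccr8 held 1 on the opposite strand at 239 bases, and Cxcr3 held none in this window. Ccr2, whose window is not printed, also held 2 matches, and its log2 ratio was 0.07 beside -0.95 for Ccr3. RefSeq windows were matched for 23 of the 33 members, and 12 of those 23 held a match in at least 1 window; matches were in 44.4% of the 27 member windows. Of all 32851 RefSeq windows of this length 26.5% held one, and of the 12012 windows of genes listed by the authors 17.2%. These matches describe letters only, with no binding measured.

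Per kilobase of transcript, the receptors with the highest levels were Cxcr6, whose product binds CXCL16 and marks lung-resident T cells, and Ccr8. Cxcr6 had a mean of 90.5 CPM per kilobase over both groups and Ccr8 74.1, and the ranges of their 4 libraries overlapped (79.6 to 113.9 against 63.2 to 95.9). S1pr4, the S1P receptor confined largely to blood cell lineages, was next at 37.8 CPM per kilobase, with all 4 libraries (33.7 to 47.9) below those of Ccr8 and above those of Ccr4. Ccr4 at 11.2, Ccr6 at 10.4, S1pr1 at 9.55, Cxcr3 at 8.23 and Ccr2 at 7.05 CPM per kilobase followed, and the library ranges of Ccr4, S1pr1 and Cxcr3 overlapped. Ccr1 was at 4.78 CPM per kilobase, and the other receptors described here lay between 0.516 (Ccr9) and 1.61 (S1pr2). Of the type 2 receptors, Ccr8 and Ccr4 were thus among the highest and Ccr3 was low. Lengths were the longest coding transcripts of GENCODE M21, which need not be the models that the authors counted on.

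**Figure D1:**
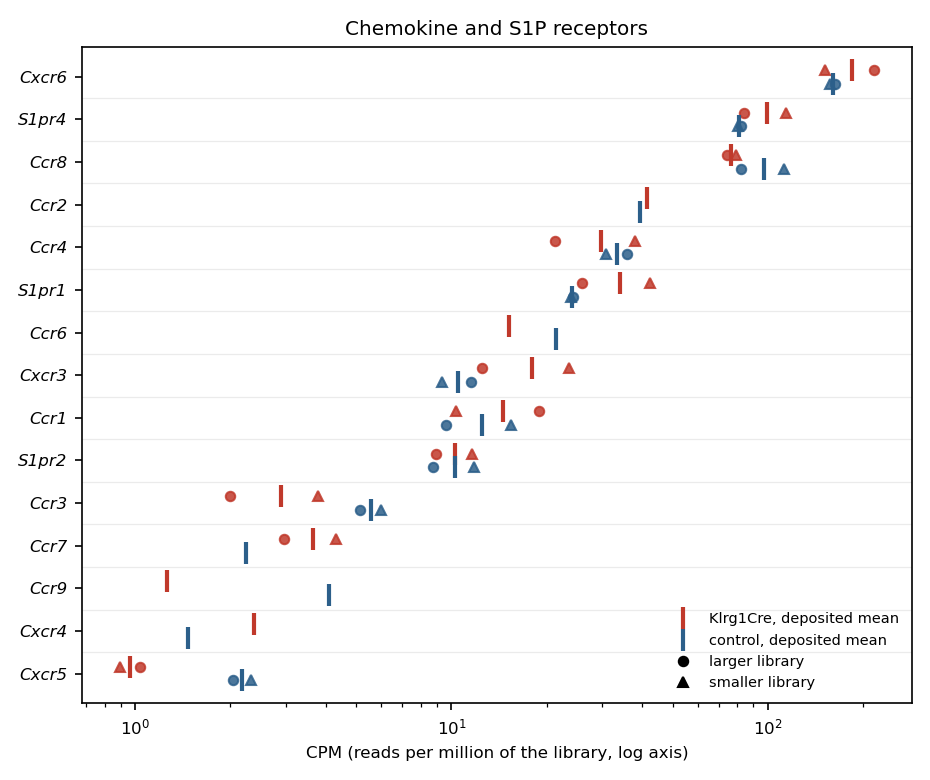
Level of 15 receptor genes in CPM on a log axis, with Klrg1Cre in red and control in blue; vertical bars are the deposited group means, circles the larger and triangles the smaller library where both could be worked out. Ccr3, Ccr8 and Cxcr5 lie lower and Cxcr3, S1pr1 and S1pr4 higher in both Klrg1Cre libraries, while Cxcr6, Ccr4, Ccr1 and S1pr2 overlap between groups. Levels of different genes are not scaled for length here.

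No receptor and no ligand passed an adjusted p of 0.05 in the authors' deposited table, where 0.0589% of all genes did (7 of 11883). At an unadjusted p below 0.05, 4 of 16 receptors were found (Ccr9, Ccr3 and Cxcr5 with lower and Cxcr3 with higher means in Klrg1Cre) and 4 of 17 ligands (Ccl8 and Ccl9 lower, Ccl5 and Ccl4 higher). That is 24.2% of the 33 members, against 7.09% of all genes in the same table (3.72% higher, 3.37% lower). The members were chosen with earlier results of these data known, so no test was run on these shares. The adjusted p of the members ran from 0.284 to 0.998. The median log2 ratio was 0.04 for receptors and -0.15 for ligands, beside 0.01 for all genes. Of the 22 members with values per library, 6 had both Klrg1Cre libraries above both control libraries and 6 had both below, against 19.3% and 18.3% of all 5351 genes with such values.

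**Figure D2:**
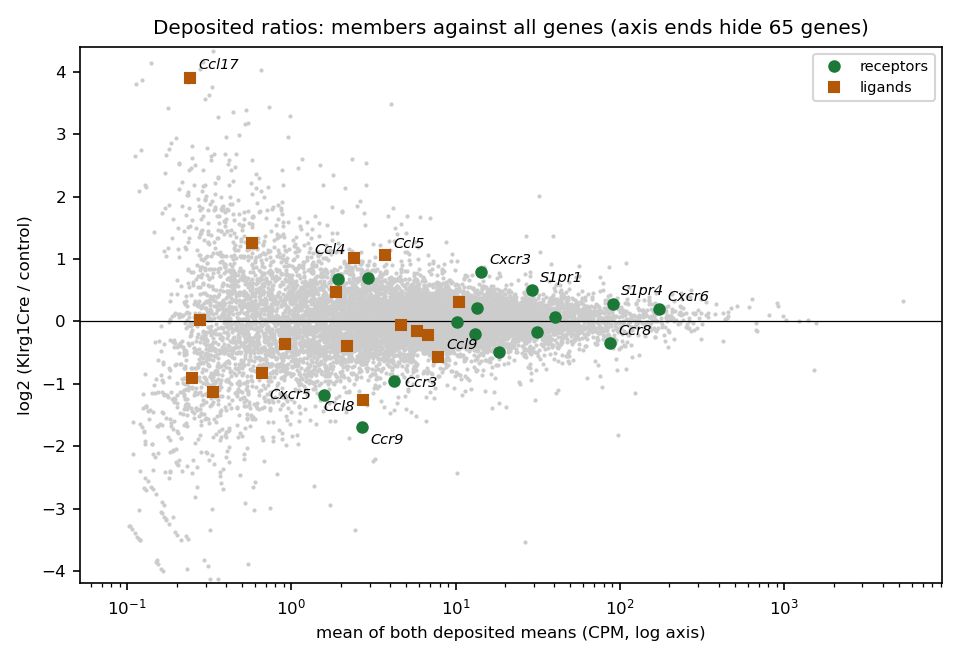
Log2 ratio of the deposited means (Klrg1Cre over control) against the mean of both groups in CPM on a log axis, for all genes other than Rn45s (grey), receptors (green circles) and ligands (orange squares). Members lie on both sides of 0; Ccr9 at -1.70 is the receptor with the lowest ratio and Ccl17 at 3.91, a gene with a few reads, the ligand with the highest, and the axis ends leave out 65 genes.

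Among receptors linked to type 2 cells, Ccr3 and Ccr8 were lower in both Klrg1Cre libraries, and Ccr4 was not. Ccr3 encodes the eotaxin receptor of eosinophils and some Th2 cells. It held 2.00 CPM (52 reads) in the larger and 3.78 CPM (55 reads) in the smaller Klrg1Cre library, and 5.15 CPM (172 reads) and 6.01 CPM (192 reads) in the larger and smaller control libraries. Both Klrg1Cre libraries were thus under both controls, and the authors' deposited table gives a 1.93-fold lower mean with p = 0.0165 and adjusted p = 0.599. In limma on the log2(CPM + 1) scale the difference was -0.79 ± 0.26 (SE), with an adjusted p of 0.398. The log2 ratio of Ccr3 was -0.95, -0.56 without the larger and -1.48 without the smaller Klrg1Cre library. Of 7 eosinophil markers the table lists 3, Ccr3 itself among them; the others had low deposited means, Siglecf with 1.91 against 0.977 CPM and Alox15 with 0.504 against 0.137 CPM, and lay on the other side of 0 from Ccr3.

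Ccr8 encodes the receptor for CCL1, carried by tissue Th2 and regulatory T cells. Its Klrg1Cre libraries held 74.2 and 79.2 CPM and its control libraries 82.4 and 112.7 CPM. The groups did not overlap, but the smaller control library lay well above the larger one, and without it the log2 ratio of -0.35 became -0.10. In the authors' deposited table Ccr8 was 1.27-fold lower with p = 0.0697 and adjusted p = 0.729. Ccr4, the receptor for CCL17 and CCL22, held 21.3 and 38.1 CPM in the Klrg1Cre libraries and 36.0 and 30.7 CPM in the control libraries. The smaller Klrg1Cre library was the highest and the larger one the lowest of the 4, so the groups overlapped; the deposited means were 29.7 and 33.3 CPM with adjusted p = 0.868 in the authors' deposited table.

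Receptors linked to type 1 and type 17 cells had no common direction. Cxcr3, the receptor for the interferon-induced chemokines CXCL9, CXCL10 and CXCL11, held 12.5 and 23.6 CPM in the larger and smaller Klrg1Cre libraries and 11.6 and 9.35 CPM in the control libraries. The smaller Klrg1Cre library stood far above the rest, and the larger one lay close to the higher control. The authors' deposited table gives a 1.72-fold higher mean with p = 0.0301 and adjusted p = 0.638. The log2 ratio was 0.78 with all libraries, 0.26 without the smaller and 1.17 without the larger Klrg1Cre library. Without the larger one, limma gave Cxcr3 an adjusted p of 0.0471 over the 5351 genes, the only such call for a member in any of the fits that left out 1 library; with all libraries its adjusted p was 0.445 and 0.224% of the 5351 genes were called. Ccr6, the receptor for CCL20, averaged 15.2 against 21.4 CPM in the authors' deposited table (p = 0.178, adjusted p = 0.786). Ccr6 could not be split into libraries.

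Of the receptors that guide cells to gut or lymphoid tissue, Ccr9 and Cxcr5 had lower and Ccr7 and Cxcr4 higher means. Ccr9, the receptor for CCL25 that directs T cells to the small intestine, had the lowest p of all members in the authors' deposited table: its means were 1.26 against 4.10 CPM, 3.24-fold lower in Klrg1Cre (p = 0.00163, adjusted p = 0.284). No value per library could be worked out for it, and exons of Ccr9 overlap those of Slc6a20a and Gm17200 in GENCODE M21, so reads of these genes may be mixed. Cxcr5, which brings T cells into B cell follicles, held 1.04 and 0.893 CPM (27 and 13 reads) in the Klrg1Cre libraries and 2.04 and 2.32 CPM (68 and 74 reads) in the control libraries. Its groups were apart, with a 2.25-fold lower mean in the authors' deposited table (p = 0.0222, adjusted p = 0.612), though an exon of Bcl9l lies on the opposite strand and strand use in counting is not given. Ccr7, the lymph node homing receptor, averaged 3.64 against 2.25 CPM, and Cxcr4, the CXCL12 receptor, 2.37 against 1.47 CPM (p = 0.0921 and 0.211 in the authors' deposited table).

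Cxcr6 and the receptors of inflamed tissue were close between groups. Cxcr6 held 217.2 and 151.8 CPM in the larger and smaller Klrg1Cre libraries and 163.7 and 157.5 CPM in the control libraries, so the Klrg1Cre libraries enclosed both controls. Its deposited means were 184.5 and 160.6 CPM (adjusted p = 0.839 in the authors' deposited table), and the log2 ratio of 0.20 became 0.44 without the smaller and -0.08 without the larger Klrg1Cre library. Ccr2, the CCL2 receptor of monocytes and effector T cells, averaged 41.4 and 39.3 CPM (adjusted p = 0.954 in the authors' deposited table). Ccr1, which binds CCL3 and CCL5 and is also carried by macrophages, held 18.9 and 10.3 CPM against 9.62 and 15.4 CPM, and overlapped (adjusted p = 0.917 in the authors' deposited table).

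Of the S1P receptors, S1pr1 and S1pr4 were higher in both Klrg1Cre libraries and S1pr2 was nearly equal. S1pr1, the egress receptor, held 25.9 and 42.4 CPM in the larger and smaller Klrg1Cre libraries and 24.3 and 23.8 CPM in the control libraries. The controls were nearly equal, the larger Klrg1Cre library lay just above them, and the smaller one carried the difference: the log2 ratio was 0.50 with all libraries, 0.11 without the smaller and 0.82 without the larger. The authors' deposited table gives a 1.42-fold higher mean with p = 0.0616 and adjusted p = 0.712; limma gave 0.45 ± 0.20 (SE) with an adjusted p of 0.599. S1pr4 showed the same order, with 84.0 and 114.4 CPM against 82.2 and 80.5 CPM, p = 0.122 in the authors' deposited table and a log2 ratio of 0.29 that became 0.05 without the smaller Klrg1Cre library. S1pr2, which restrains migration, held 8.92 and 11.6 CPM against 8.75 and 11.8 CPM, and the groups overlapped (p = 0.993 in the authors' deposited table).

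The libraries of 1 genotype differed for many members. In Klrg1Cre, 7 of 11 receptors with values per library had a ratio of smaller to larger library whose exact 95% interval lay above 1 (conditional binomial, counting error only) and 2 had one below; in control these numbers were 3 and 2 of 10. Among the 7 were Cxcr3 at 1.89 (interval 1.62 to 2.20), Ccr4 at 1.79 (1.59 to 2.02) and S1pr1 at 1.64 (1.46 to 1.83), and below 1 were Cxcr6 at 0.699 (0.665 to 0.734) and Ccr1 at 0.546 (0.451 to 0.657). Among genes with at least 20 reads, a ratio beyond 1.5-fold either way was seen in 45.5% of 11 receptors in Klrg1Cre and 10% of 10 in control. Over all such genes the shares were 23.1% of 5055 and 21.1% of 5191. For ligands these shares were 30% of 10 in Klrg1Cre and 33.3% of 12 in control. The interval lay above 1 in 4 and below 1 in 4 of 13 ligands in Klrg1Cre, and above in 3 and below in 2 of 14 in control. Such intervals narrow with more reads and were not counted over all genes. For the named receptors the spread within Klrg1Cre was larger than counting error, and for Cxcr3 and S1pr1 the ratio of the Klrg1Cre libraries was about the size of the ratio between the groups. In limma, 8 of the 22 members had an unadjusted p below 0.05 with all libraries, against 7.79% of the 5351 genes: Ccl4, Ccl5, Ccl8, Ccl9, Ccr3, Cxcr3, Cxcr5 and S1pr1. Without the smaller Klrg1Cre library 5 members did (all genes 7.55%), and only Ccr3 was among those 8. Without the larger Klrg1Cre library 9 members did (all genes 9.49%), 7 of them among the 8. Without the larger control library 3 did (all genes 5.4%), with Ccl8 and Cxcr5 from the 8, and without the smaller control library Ccl4 alone (all genes 3.79%).

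**Figure D3:**
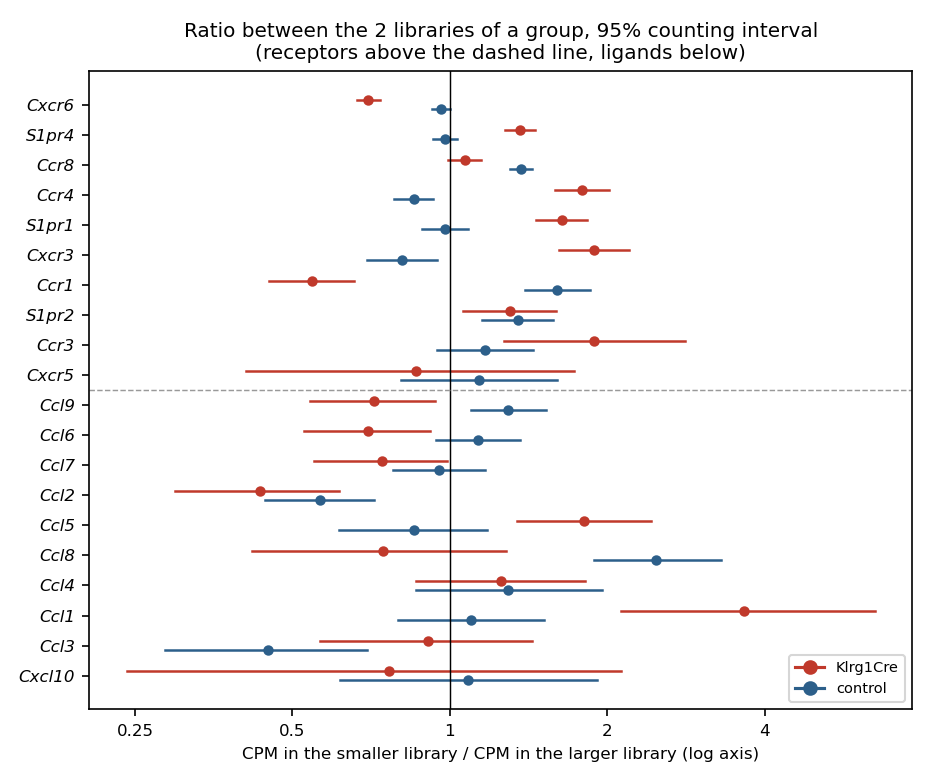
Ratio of CPM in the smaller to the larger library of each group, on a log axis, for members with reads in all 4 libraries; points are ratios and lines exact 95% counting intervals, with Klrg1Cre in red and control in blue. Ccr4, S1pr1, Cxcr3 and Ccl5 lie to the right and Cxcr6, Ccr1, Ccl2 and Ccl6 to the left of 1 in Klrg1Cre, and in control Ccl8 and Ccr1 lie to the right.

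Markers of regulatory T cells differed alongside Ccr8. All 11 markers of these cells, which also carry Ccr8, had lower deposited means in Klrg1Cre (9 with unadjusted p below 0.05, a level that 3.37% of all genes reached with lower means), with summed means of 353.7 against 572.8 CPM. For the 5 of them with values per library the sums were 71.9 and 103.7 CPM in the larger and smaller Klrg1Cre libraries and 112.3 and 155.6 CPM in control; Foxp3 had deposited means of 50.6 against 104.6 CPM. The order of the 4 libraries in these sums was that of Ccr8, and its part in the result was not tested. Of 14 ILC2 markers, several of which Th2 cells share, 13 were listed, with 6 higher and 7 lower means and sums of 658.2 against 674.2 CPM. At an unadjusted p below 0.05 in the authors' deposited table, 5 of them were higher and 3 lower. Over all genes 3.72% were higher and 3.37% lower at that level. Nmur1 had a 3.22-fold and Gata3 a 1.33-fold higher mean, while Klrg1 was 11.5-fold and Arg1 1.83-fold lower.

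Of the ligands, 7 had higher and 10 had lower means in Klrg1Cre. Per kilobase, Ccl7, Ccl5, Ccl2, Ccl8 and Ccl6 were highest, at 4.71 to 7.22 CPM per kilobase, and the library ranges of neighbours in that order overlapped. Ccl2, Ccl7, Ccl8, Ccl6 and Ccl9, grouped here by hand, attract monocytes and other myeloid cells and are typical macrophage products. All 5 had lower deposited means in Klrg1Cre, as had 5869 of all 11883 genes. For Ccl2 and Ccl7 the log2 ratios were only -0.06 and -0.15. The 7 ligands with higher means, Cxcl16, Ccl5, Ccl4, Ccl3, Cxcl2, Cxcl3 and Ccl17, are not in this group. Summed per library the 5 reached 29.2 and 19.2 CPM (Klrg1Cre) against 29.5 and 33.2 CPM (control), and the larger libraries of the groups were nearly equal. Ccl8 held 1.84 and 1.37 CPM (48 and 20 reads) in the Klrg1Cre libraries and 2.22 and 5.51 CPM (74 and 176 reads) in the control libraries. The groups were apart, and the smaller control library stood above the rest; the authors' deposited table gives a 2.40-fold lower mean (p = 0.0372, adjusted p = 0.676), and without that library the log2 ratio of -1.26 became -0.46. Ccl9 held 7.30 and 5.22 CPM against 8.15 and 10.5 CPM, also apart, with a 1.49-fold lower mean in the authors' deposited table (p = 0.0434, adjusted p = 0.698); its log2 ratio of -0.58 was -0.38 without the smaller control and -0.36 without the smaller Klrg1Cre library.

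The other members of that group overlapped. Ccl2, the main ligand of CCR2, held 6.34 and 2.75 CPM in the larger and smaller Klrg1Cre libraries and 6.05 and 3.41 CPM in the control libraries, and in each genotype the smaller library was the lower one. Ccl7 held 6.30 and 4.67 CPM against 6.23 and 5.94 CPM, and Ccl6 7.38 and 5.15 CPM against 6.86 and 7.76 CPM. The p-values of Ccl2, Ccl7 and Ccl6 in the authors' deposited table ran from 0.357 to 0.781. Macrophage and monocyte markers were found in both groups: 19 of 20 were listed, 9 with higher and 10 with lower means, summing to 2073 (Klrg1Cre) and 2774 (control) CPM. Marco was the exception, with no read in either control library. For the 10 markers with values per library the sums were 593.1 and 346.9 CPM in the larger and smaller Klrg1Cre libraries and 385.1 and 423.2 CPM in control. Ctsd alone made up most of these sums, with 538.3 and 308.4 CPM in the Klrg1Cre libraries and 331.5 and 369.5 CPM in control. Chil3 and Lyz2 could not be split into libraries and are not in them. Chil3, an alveolar macrophage gene that made up most of the summed means, had 1124 against 1932 CPM in the authors' deposited table, while Lyz2 (395.9 against 364.0 CPM), Ctsd (423.3 against 350.5 CPM) and Cd68 (68.0 against 57.5 CPM) lay on the other side. The smaller Klrg1Cre library was lowest in this sum and in Ccl2, Ccl6, Ccl7, Ccl8 and Ccl9, and the part of macrophage RNA in the ligand values was not tested.

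**Figure D4:**
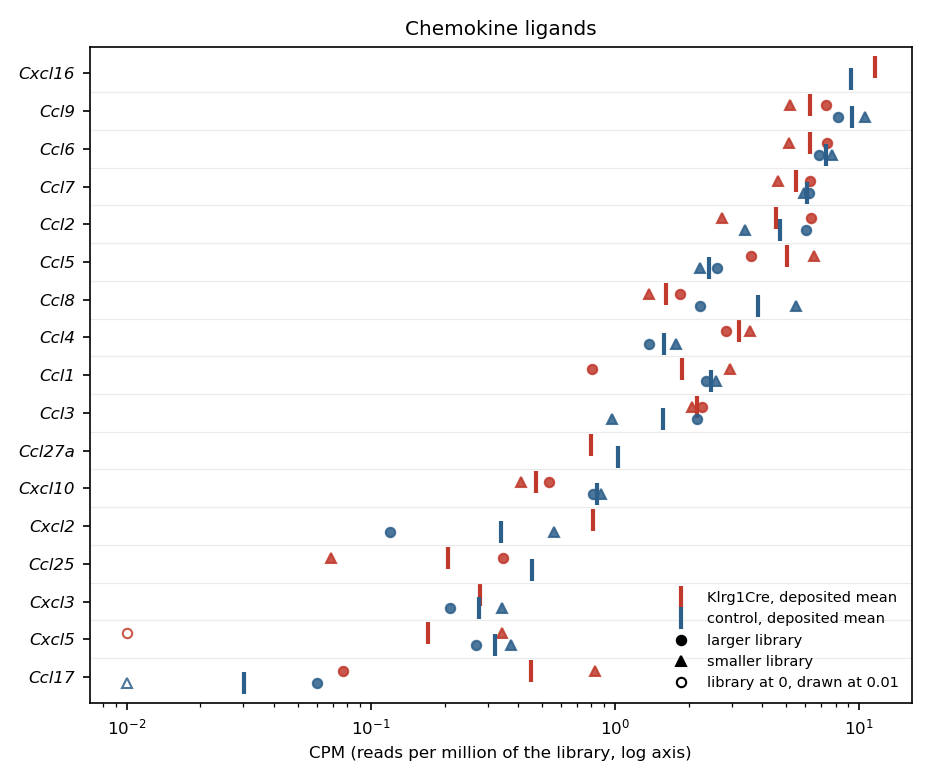
Level of the 17 ligand genes in CPM on a log axis, drawn as for the receptors; open symbols at 0.01 stand for a library with no read. Ccl4, Ccl5 and, on few reads, Ccl17 lie higher and Ccl8, Ccl9 and Cxcl10 lower in both Klrg1Cre libraries. The smaller Klrg1Cre library is the lowest of 4 for Ccl2, Ccl6 and Ccl7.

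Ccl3, Ccl4 and Ccl5, which activated T cells and cytotoxic cells secrete, had higher means in Klrg1Cre. Ccl5 held 3.61 and 6.52 CPM (94 and 95 reads) in the larger and smaller Klrg1Cre libraries and 2.61 and 2.22 CPM (87 and 71 reads) in the control libraries. Both Klrg1Cre libraries were above both controls, with a 2.10-fold higher mean in the authors' deposited table (p = 0.0180, adjusted p = 0.606) and a limma difference of 0.79 ± 0.27 (SE, adjusted p = 0.421). The log2 ratio of Ccl5 was 1.07, 0.58 without the smaller and 1.43 without the larger Klrg1Cre library. Ccl4 held 2.84 and 3.57 CPM (74 and 52 reads) against 1.38 and 1.78 CPM (46 and 57 reads), apart in the same way, with a 2.03-fold higher mean in the authors' deposited table (p = 0.0201, adjusted p = 0.610). Its log2 ratio of 1.02 stayed between 0.85 and 1.22 when any 1 of the 4 libraries was left out. Ccl3 held 2.27 and 2.06 CPM against 2.16 and 0.970 CPM and overlapped (p = 0.249 in the authors' deposited table). Of 10 markers of natural killer and cytotoxic cells the table lists 4; Gzmb had deposited means of 18.4 against 15.9 CPM, while Gzma (0.268 against 0.858 CPM) and Prf1 (0.0880 against 0.259 CPM) were near 0.

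Cxcl16, the ligand of CXCR6, was the ligand with the highest mean in CPM and averaged 11.6 against 9.28 CPM (p = 0.463, adjusted p = 0.897 in the authors' deposited table); its exons overlap Zmynd15 on the opposite strand. Ccl1, the ligand of CCR8 made by activated Th2 cells, held 0.807 and 2.95 CPM (21 and 43 reads) in the larger and smaller Klrg1Cre libraries and 2.37 and 2.60 CPM in the control libraries. The larger Klrg1Cre library alone was low, and the log2 ratio of -0.40 was -1.62 without the smaller and 0.25 without the larger Klrg1Cre library. Ccl17, a ligand of CCR4 typical of dendritic cells, rested on 14 reads in Klrg1Cre (2 and 12) and 2 in control (2 and 0). Its ratio of pooled reads was 11.3 (exact 95% interval 2.59 to 102.2, counting error only), and p was 0.128 in the authors' deposited table. Of 11 dendritic cell markers 7 were listed, all with higher means in Klrg1Cre, as were 6014 of all 11883 genes. H2-Ab1 and H2-Aa, 2 of these markers, had an unadjusted p below 0.05, a level that 3.72% of all genes reached with higher means. The summed means were 136.3 against 114.5 CPM and came mostly from H2-Ab1, Cd74, H2-Eb1 and H2-Aa. Cd74 was nearly equal, with 43.4 against 43.4 CPM. The part of these markers in the Ccl17 value was not tested.

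The remaining ligands, Cxcl10, Cxcl2, Cxcl3, Cxcl5, Ccl25 and Ccl27a, had deposited means between 0.172 and 1.02 CPM in either group and unadjusted p from 0.113 to 0.953. Cxcl10, an interferon-induced CXCR3 ligand, held 14 and 6 reads in Klrg1Cre and 27 and 28 reads in control (0.538 and 0.412 against 0.809 and 0.876 CPM), so its Klrg1Cre libraries were both lower while those of its receptor gene Cxcr3 were both higher. Exons of Cxcl10 overlap those of Art3. Ccl25, the CCR9 ligand, had deposited means of 0.207 against 0.457 CPM, with exons that overlap Elavl1. Ccl27a has near-identical copies in the mouse genome and overlaps Il11ra1, so its value is uncertain.

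Neighbouring members differed in direction in some runs and were alike in others. In RefSeq order on chromosome 9, Ccr9, Cxcr6, Ccr1, Ccr3 and Ccr2 follow each other with at most 1 other protein-coding gene between neighbours, and their log2 ratios were -1.70, 0.20, 0.22, -0.95 and 0.07. On chromosome 11, Ccl5, Ccl9, Ccl6, Ccl3 and Ccl4 are adjacent protein-coding genes with log2 ratios of 1.07, -0.58, -0.22, 0.47 and 1.02, so the genes next to each other within Ccl9 and Ccl6 and within Ccl3 and Ccl4 were alike. A further run on that chromosome had ratios below 0 throughout, with Ccl2 at -0.06, Ccl7 at -0.15, Ccl8 at -1.26 and Ccl1 at -0.40; 2 other coding genes lie between Ccl7 and Ccl8 and 0 between the other neighbours.

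Of the 79 listed genes that act with these receptors, 0 passed an adjusted p of 0.05 and 11 had an unadjusted p below 0.05 in the authors' deposited table, 10 higher and 1 lower; over all genes the shares were 0.0589% and 7.09% (3.72% higher, 3.37% lower). Among other guidance receptors, 3 of 11 had higher means at that level, against 3.72% of all genes, and 0 lower. Ltb4r1, the leukotriene B4 receptor, had 97.8 and 93.4 CPM in the Klrg1Cre libraries against 57.6 and 67.0 CPM (p = 0.00105, adjusted p = 0.260 in the authors' deposited table). Gpr183, the oxysterol receptor that positions lymphocytes, held 18.1 and 22.3 CPM against 11.7 and 15.6 CPM, and Lpar6, a lysophosphatidic acid receptor, 17.6 and 16.9 CPM against 13.2 and 12.5 CPM. The groups did not overlap in these genes, but the genes were named for their p in the same libraries, so this adds nothing to it. Both Klrg1Cre libraries were above both controls in 19.3% of the 5351 genes with values per library.

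Of 23 G protein and desensitization genes, 17 had higher and 6 lower means. At an unadjusted p below 0.05, 2 were higher and 1 lower, against 3.72% and 3.37% of all genes. Higher were Gnai2, encoding a subunit of the inhibitory G protein, and Gng2, encoding a G protein subunit. Lower was Rgs10, which switches inhibitory G proteins off. The related genes Gnai3 (25.2 against 29.8 CPM) and Rgs1 (121.1 against 98.9 CPM) went the other way without reaching that level. Gnai2 had 75.9 and 77.7 CPM against 57.8 and 59.2 CPM (adjusted p = 0.551 in the authors' deposited table). Rgs10 had 32.7 and 30.9 CPM against 49.3 and 47.0 CPM (adjusted p = 0.268 in the authors' deposited table). In both genes the libraries of a group lay closer to each other than to the other group. Both were named for their p in the same libraries, so this adds nothing to it. Gng2 had deposited means of 42.7 and 32.8 CPM. Of 29 migration effectors, 4 (13.8%) had higher means at that level, against 3.72% of all genes, and 0 lower: Rasgrp2, encoding the activator of the integrin switch RAP1 (9.30 against 2.91 CPM, 3.20-fold, adjusted p = 0.102 in the authors' deposited table), the phosphoinositide 3-kinase subunit genes Pik3r5 (23.2 against 14.0 CPM) and Pik3cd (50.8 against 37.1 CPM), and Dock8, encoding an activator of CDC42 (58.2 against 45.1 CPM).

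Of 10 genes of S1P metabolism and receptor control, Klf2 alone (10%) had an unadjusted p below 0.05 in the authors' deposited table, against 7.09% of all genes. Klf2 had 4.19 and 5.56 CPM against 1.62 and 2.53 CPM, with a 2.35-fold higher mean in the authors' deposited table (p = 0.00544, adjusted p = 0.428). For Klf2 and S1pr1 both Klrg1Cre libraries were above both controls, as for 19.3% of the 5351 genes with values per library. A link between Klf2 and S1pr1 was not tested. Cd69 had 23.0 and 26.8 CPM against 26.4 and 35.9 CPM and overlapped (adjusted p = 0.764 in the authors' deposited table). None of the 7 atypical receptors and chemokines outside the symbol pattern had an unadjusted p below 0.05; the most abundant, Cx3cr1, had deposited means of 16.6 and 17.6 CPM. Median log2 ratios of the 5 lists ran from -0.02 to 0.14, beside 0.01 for all genes.

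**Figure D5:**
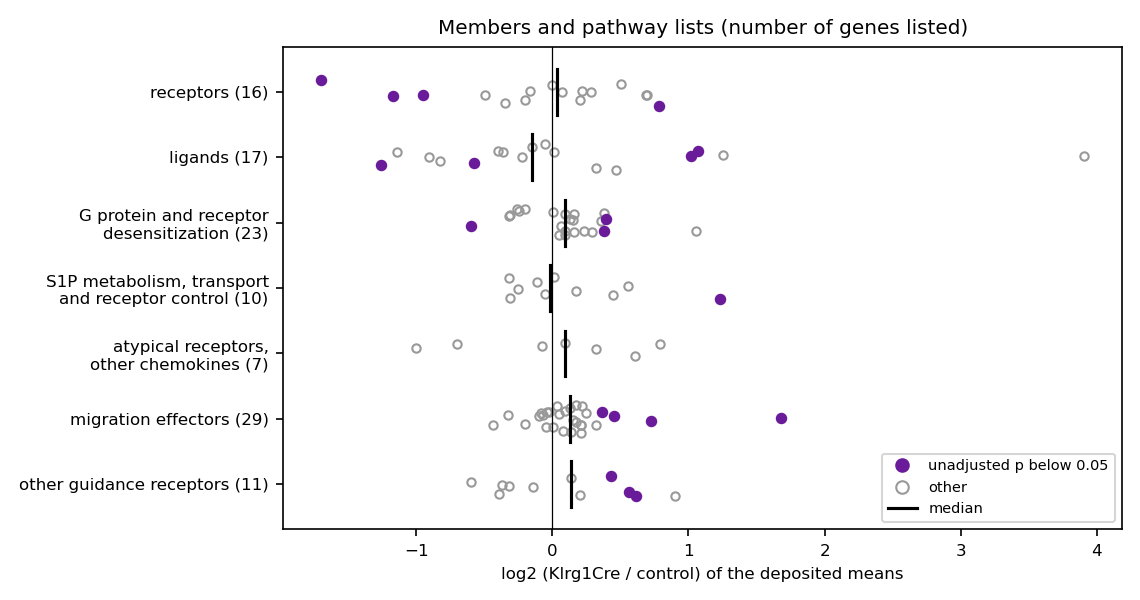
Log2 ratio of the deposited means for receptors, ligands and the 5 lists of genes that act with them; each circle is 1 gene, filled where the unadjusted p was below 0.05, and black lines are medians, with the number of listed genes in brackets and vertical scatter without meaning. Receptors and ligands spread to both sides of 0, and the filled circles of migration effectors and other guidance receptors lie to the right.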

How the data were processed

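RNA-seq libraries of 4 samples, 2 per genotype, are described in the submitters' processing notes by STAR, Partek and mm9, without versions. The authors deposited 1 table for 11883 genes: group means in CPM with 0.0001 added, a ratio of the means (and a signed form of it), p-values and adjusted p-values, the latter equal to a Benjamini-Hochberg adjustment. The deposited column of total counts is a signal that matched 2 times the summed means for each of the 11883 genes and served only that check. The model behind the authors' p-values is not given in the sources used here.

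A gene counts as called only where the authors' adjusted p was below 0.05. Means were split into whole reads of 2 libraries (tolerance 1e-08 reads, means up to 20000 CPM), which succeeded for 49.0% of genes in Klrg1Cre, 47.0% in control and 45.0% (5351) in both; the others may hold fractions of reads. Since most genes could not be split, no count model was fitted. Limma 3.58.1 in R 4.3.3 with a trended variance was run on log2(CPM + 1) of the 5351 genes, and both scripts were tested on simulated data. The changes simulated for limma were larger than those of most members and were set only in genes of at least 5 CPM. The simulated spread between libraries was a set value, not one estimated from these data. That test does not show how limma performs on smaller changes, lower levels or a wider spread. Depth was 14564426 to 33379572 reads per library; intervals cover counting error only.

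Members, gene lists, motifs and tests were chosen with earlier results of these data known. Of the receptors, 1 is not reported here by name; it stays in the counts, medians and sums. Every other member is named, with full values where the higher mean reached 5 CPM or the unadjusted p was below 0.05; up to 5 genes per pathway list were named by unadjusted p. The alternatives were pseudocounts, scaling to the listed genes other than Rn45s, filters on low means, limma and leaving out each library. The results of all 11 marker lists follow in the closing section where not given above.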

Additional observations from a re-analysis of the deposited data

How the results depend on the processing

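No result on the number of called members rested on the filter or the test: the count was 0 for receptors and 0 for ligands with the authors' adjusted p, with means of at least 1 CPM and with limma. At an unadjusted p below 0.05 it was 4 for receptors and 4 for ligands, and 11 for the pathway genes. With each library left out in turn (chosen after seeing the data; a lone sample is assumed to vary like the other group), limma called 0 to 1 receptors and 0 ligands at an adjusted p of 0.05; the 1 was Cxcr3 without the larger Klrg1Cre library. By unadjusted p in limma, 8 of the 22 split members passed with all libraries. Without the smaller Klrg1Cre library 5 passed, of which only Ccr3 was among those 8; without the larger control library 3, of which 2 (Ccl8 and Cxcr5); without the smaller control library 1, Ccl4; and without the larger Klrg1Cre library 9, of which 7. The median log2 ratio of the receptors was 0.04, and 0.10 over the 10 split receptors, and it ranged from -0.079 (without the smaller Klrg1Cre library) to 0.20 (without the smaller control library) when each library was left out; that of the ligands was -0.15, and -0.26 to 0.03. Over 22 split members, 9 turned direction in at least 1 such step (Ccl1, Ccl2, Ccl6, Ccl7, Ccr1, Ccr4, Cxcl5, Cxcr6 and S1pr2). Other pseudocounts and the scaling turned 1 of 33 members, Cxcl3, but 20 of their 99 values moved by more than 1 SD of the log2 ratios between single libraries of the groups (the members' median SD where a member had no such values), all under a pseudocount and toward 0. With pseudocounts of 1 and 5 CPM the log2 ratio went from -1.70 to -1.17 and -0.54 for Ccr9, from -1.17 to -0.69 and -0.27 for Cxcr5, and from 1.02 to 0.71 and 0.32 for Ccl4. No paired analysis was possible because the deposited columns are group means that carry no replicate number. The 2 libraries per group and the low reads of many ligands limit what could be detected.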

Other observations

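Values of the remaining marker lists follow. In the authors' deposited table, 4 of 9 B cell markers were listed, with summed means of 1.72 against 3.18 CPM, 4 of 10 neutrophil markers with 10.1 against 6.72 CPM, and 8 of 13 markers of epithelium, endothelium and fibroblasts with 30.4 against 24.0 CPM; of 7 mast cell and basophil markers 0 were listed. Among the structural markers, Pecam1, an endothelial gene, had deposited means of 17.7 against 12.1 CPM, Epcam held 0.538 and 1.30 CPM in the Klrg1Cre libraries and 1.53 and 4.04 CPM in the control libraries, and Scgb1a1, a club cell gene, 3.73 and 4.74 CPM against 2.49 and 2.66 CPM. Class II genes of the dendritic cell list were higher in both Klrg1Cre libraries, with H2-Ab1 at 48.2 and 53.1 CPM against 37.7 and 40.1 CPM (adjusted p = 0.610 in the authors' deposited table) and H2-Aa at 16.2 and 18.2 CPM against 11.9 and 13.9 CPM (adjusted p = 0.698 in the authors' deposited table). Cd74, the class II invariant chain gene, had deposited means of 43.4 and 43.4 CPM.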
